A study of Mus musculus with 24 samples.

Results

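The standard proteasome of ID8 cells was examined through 31 genes for its constitutive subunits, measured after interferon treatment. The genes were 7 of the 20S alpha ring (Psma1 to Psma7), 7 of the 20S beta ring (Psmb1 to Psmb7), 6 ATPases of the 19S cap (Psmc1 to Psmc6) and 11 other subunits of that cap (Psmd genes). They were chosen by name, with the subunits of the immunoproteasome left out, and are 31 of 22911 genes with a named probe on the array. All 31 had a probe well above background on all 22 arrays used, and all 31 passed the filter that left 14428 genes to test. ID8 is an established mouse ovarian cancer line that arose from surface epithelial cells. Cells were treated for 3 h with recombinant mouse interferon (IFN) epsilon, or with IFN beta, at doses of 10, 100 and 1000 IU/ml each, and the untreated cells received the saline vehicle. Replicates 1, 2 and 3 were made on separate dates, each a pool of 3 technical replicates, and groups held 3 samples each, except IFN beta at 10 and at 100 IU/ml, which held 2 (dates 1 and 2). The third array of each of those groups carries a label that excludes it and was left out.

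The 26S proteasome is the protease that degrades most proteins tagged with ubiquitin in a cell. Its 20S core is a barrel of alpha and beta rings, with the cutting sites on Psmb6 (beta 1, after acidic residues), Psmb7 (beta 2, after basic residues) and Psmb5 (beta 5, after hydrophobic residues). The 19S cap recognises tagged proteins, removes the tag, unfolds them and threads them into the core. Interferons are known for inducing Psmb9, Psmb10 and Psmb8, which replace these catalytic subunits in newly built cores and form the immunoproteasome, a source of peptides for MHC class I.

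Arrays were read in 1 colour on 3 slides, and each untreated sample was the mean of 2 arrays. The intensity at the 75th percentile ranged from 619 to 1201 over the arrays used, and was lower on date 3 (736 ± 66.4, SD) than on dates 1 (1092 ± 94.0) and 2 (1047 ± 61.6). The share of probes well above background was 47.9% to 57.1% per array. Levels below are log2 signals relative to that percentile of the same array ("scaled log2 signal"), and they are compared between samples for 1 gene at a time, never between genes. The interferon response genes Isg15, Usp18 and Irf7 rose in limma at every IFN epsilon dose and at 1000 IU/ml IFN beta (3 of 3 called in each). At 100 IU/ml IFN beta 1 of 3 was called without the replicate number (the date) as a block and 3 of 3 with it, and at 10 IU/ml none was in either. All 6 ovarian epithelial markers (Krt7, Krt8, Krt18, Krt19, Msln, Wt1) were well above background on all 22 arrays. The leukocyte markers Ptprc and Adgre1 and the endothelial marker Cdh5 were so on at most 1 array, while Cd68, Cd3e and Kdr were on all 22 and Pecam1 on 21.

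No standard subunit passed the test at 1000 IU/ml of either interferon, while the inducible catalytic subunits Psmb8 and Psmb9 rose in the same samples. In these bulk samples a change in the share of cells that express a gene and a change of its RNA per cell cannot be told apart. For IFN epsilon against untreated cells (3 samples each) the log2 fold changes of the 31 ranged from -0.17 for Psmb1, a non-catalytic subunit of the beta ring, to 0.07 for Psma1, of the alpha ring. Their median was -0.09, beside -0.07 for all genes tested. Limma called 0 of 31 at a Benjamini-Hochberg adjusted p under 0.05, where it called 2.26% of all genes tested. An unadjusted p under 0.05 was found for 0 of 31 subunits and for 1163 of 14428 genes. The lowest adjusted p was 0.826, for Psmb1. For IFN beta the changes ran from -0.17 (Psmb7) to 0.14 (Psma2, alpha ring), with a median of -0.04 beside -0.04 for all genes. Limma called 0 of 31 there as well, against 1.56% of all genes, with 0 at an unadjusted p under 0.05, against 773 genes.

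These intervals set how large a change could have been missed. With IFN epsilon at 1000 IU/ml the 95% confidence intervals of the log2 fold change lay within 0.5 to either side of 0 for 24 of 31 subunits, and with IFN beta for 25. All 31 lay within 1 to either side, so a 2-fold change in either direction is outside the interval of every subunit at the top dose of each interferon. The widest interval belonged to Psmb2, a non-catalytic beta subunit, at -0.65 to 0.57 with IFN epsilon. With the replicate block, limma called 8.21% of all genes for IFN epsilon and 3.2% for IFN beta, and still 0 of 31 subunits. The lowest blocked limma adjusted p was 0.151 (Psmb1) with IFN epsilon and 0.263 (Psma2) with IFN beta. In each, 1 subunit had an unadjusted p under 0.05 with the block, beside 3530 of 14428 genes for IFN epsilon and 2473 for IFN beta.

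**Figure D1:**
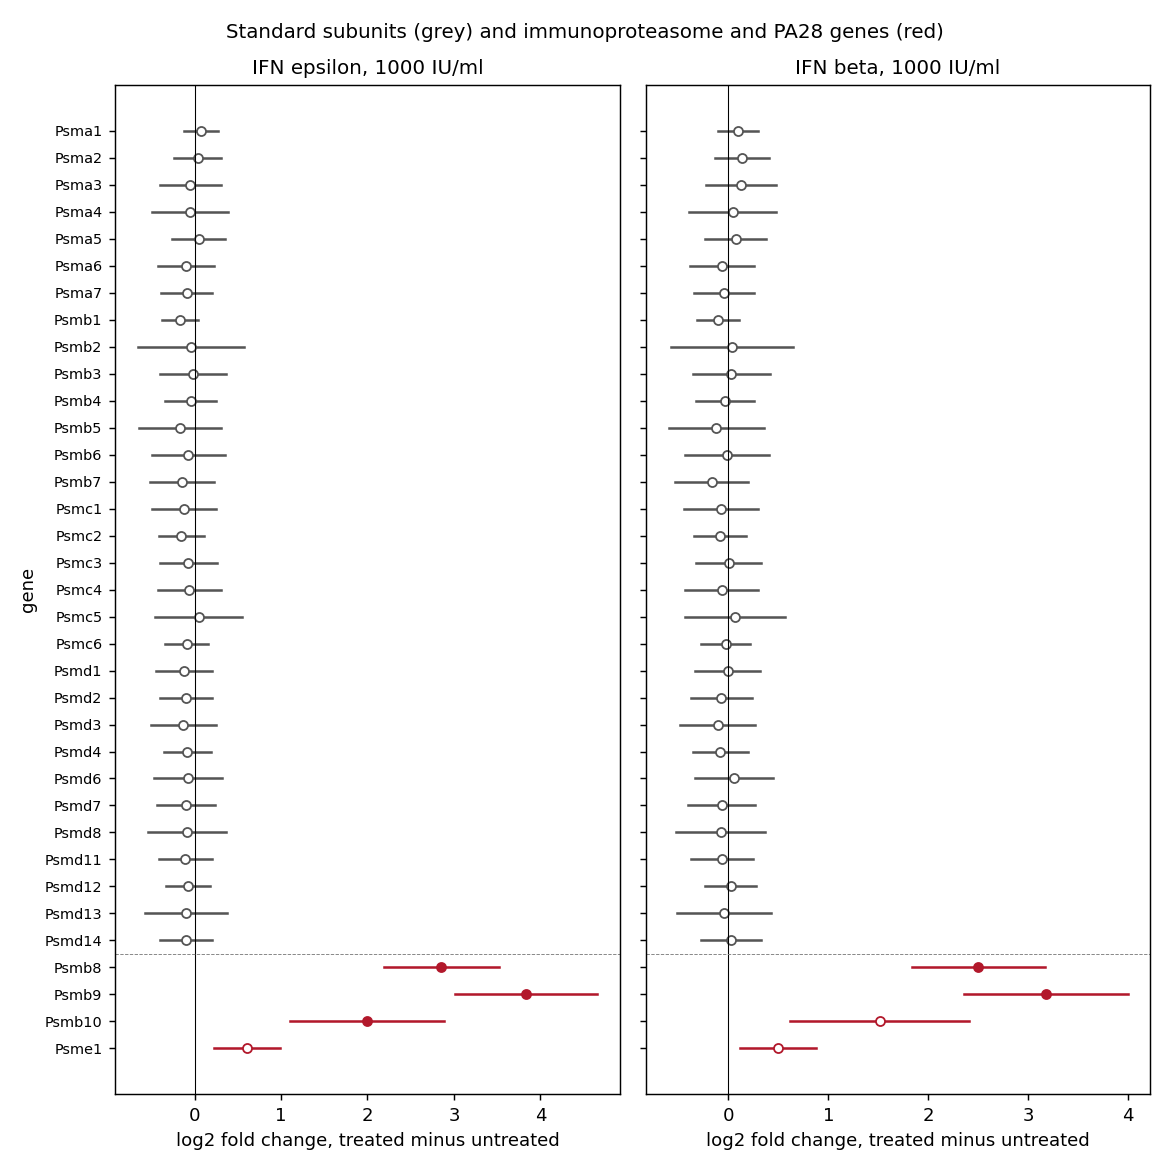
Log2 fold change against untreated cells with its 95% confidence interval (x axis) for each gene (y axis), at 1000 IU/ml IFN epsilon (left) and IFN beta (right), with 3 samples per group. Filled points have a limma adjusted p under 0.05. The 31 standard subunits (grey) lie between -0.17 and 0.14 and none is filled, while Psmb8 and Psmb9 (red) are filled in both panels and Psmb10 in the left panel.

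Small differences at the top dose of IFN epsilon were mostly below 0. Among the 31 subunits 27 had a negative log2 fold change, and so did 63.9% of all genes tested. All 11 non-ATPase cap subunits were negative (-0.13 to -0.07), as were all 7 of the beta ring (-0.17 to -0.02) and 5 of 6 cap ATPases, the exception being Psmc5 at 0.05. In the alpha ring 4 of 7 were negative, and Psma1, Psma2 and Psma5 were at 0.07, 0.04 and 0.05. With IFN beta 19 of 31 were negative, against 61.1% of all genes, and 5 of 7 alpha ring subunits were above 0. Against the untreated sample of the same date, the median of the 31 with IFN epsilon was -0.15, -0.01 and -0.09 on dates 1, 2 and 3, and that with IFN beta was -0.07, 0.03 and -0.02. The sign of the IFN beta median thus differed between dates, and the differences of both interferons on date 2 were close to 0. The median also moved when 1 sample was left out. With IFN epsilon it was 0.01 without the untreated sample of date 3 and -0.14 without that of date 2, and -0.01 and -0.16 without the treated samples of dates 1 and 3. With IFN beta it ranged from -0.12 to 0.05, so neither direction over the list held in every such fit. These fits had no replicate block, so the groups compared then held unequal dates. The same-date medians of IFN epsilon given above were below 0 on each date.

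Psmb1 had the largest negative value at 1000 IU/ml IFN epsilon. Its scaled log2 signal was 4.95, 5.02 and 5.08 in the untreated samples and 4.77, 4.89 and 4.89 with 1000 IU/ml IFN epsilon, in the order of dates 1 to 3. All 3 treated samples were below all 3 untreated ones, an order that 7.37% of all genes tested also had. The log2 fold change was -0.17 ± 0.10 (SE, limma adjusted p = 0.826). With 1000 IU/ml IFN beta the samples were at 4.83, 4.90 and 5.01, overlapped with the untreated samples and differed by -0.11 ± 0.10. Psmb1 was the 1 subunit of 31 whose samples did not overlap at 1000 IU/ml IFN epsilon, where 5.92% of all genes had every treated sample above. With IFN beta all 31 overlapped, while 5.26% of all genes lay above and 4.62% below in every sample.

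Psma2 had the largest positive value at 1000 IU/ml IFN beta. Its scaled log2 signal was 6.30, 6.20 and 6.53 in untreated cells, 6.37, 6.38 and 6.70 with IFN beta and 6.31, 6.35 and 6.47 with IFN epsilon at that dose. The highest untreated sample, that of date 3, lay above 2 of the 3 IFN beta samples. Each IFN beta sample was above the untreated sample of its own date, by 0.07, 0.18 and 0.17. The log2 fold change was 0.14 ± 0.13 with IFN beta and 0.04 ± 0.13 with IFN epsilon, neither of which passed limma's test. Scaling to the array median shifts all genes of an array alike, so it cannot move Psma2 relative to their median. The values were then -0.01 with IFN beta and -0.34 with IFN epsilon, beside medians of -0.19 and -0.44 for all genes.

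The 3 catalytic subunits of the standard core passed no test at any dose of either interferon. Psmb5 was at 4.07, 3.93 and 4.41 in the untreated samples of dates 1, 2 and 3. Its values were 4.13, 3.90 and 4.62 at 10 IU/ml IFN epsilon, 4.13, 3.82 and 4.33 at 100 IU/ml, and 3.84, 3.85 and 4.21 at 1000 IU/ml. With IFN beta they were 3.97 and 4.05 at 10 IU/ml, 4.45 and 3.78 at 100 IU/ml, and 3.90, 3.87 and 4.29 at 1000 IU/ml. Treated and untreated samples overlapped at each dose, and the sample of date 3 was the highest in every group that had one. At 1000 IU/ml the log2 fold change of Psmb5 was -0.17 ± 0.22 with IFN epsilon and -0.12 ± 0.22 with IFN beta. Its same-date differences from untreated cells were -0.23, -0.08 and -0.20 with IFN epsilon at that dose. With IFN beta they were -0.17, -0.06 and -0.12, so Psmb5 was lower on each date. It was not called with the replicate block either.

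Psmb6 was at 6.27, 5.98 and 6.58 in untreated cells, 6.03, 6.06 and 6.53 at 1000 IU/ml IFN epsilon, and 6.14, 6.19 and 6.46 at 1000 IU/ml IFN beta. The 10 samples of the lower doses lay between 6.07 and 6.60, and treated and untreated samples overlapped. Its log2 fold change at the top dose was -0.07 ± 0.20 with IFN epsilon and -0.01 ± 0.20 with IFN beta. Psmb7 was at 4.29, 4.10 and 4.49 in untreated cells, 4.04, 4.11 and 4.30 with IFN epsilon, and 4.02, 4.00 and 4.36 with IFN beta at that dose. Its samples overlapped in both comparisons, and the log2 fold changes were -0.14 ± 0.17 and -0.17 ± 0.17. Same-date differences of Psmb7 at 1000 IU/ml were -0.25, 0.01 and -0.19 with IFN epsilon and -0.27, -0.11 and -0.13 with IFN beta. Those of Psmb6 were -0.24, 0.08 and -0.05 with IFN epsilon and -0.13, 0.22 and -0.12 with IFN beta.

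The inducible counterparts were measured on the same arrays and were well above background on all 6 untreated arrays. Psmb9, which replaces Psmb6, was at -0.43, -0.40 and -1.21 in untreated cells, 3.30, 3.56 and 2.60 with 1000 IU/ml IFN epsilon, and 1.69, 2.32 and 3.49 with 1000 IU/ml IFN beta. All treated samples were above all untreated ones, and the log2 fold changes were 3.83 ± 0.38 (limma adjusted p = 2.7e-05) and 3.18 ± 0.38 (limma adjusted p = 0.000198). Psmb8, which replaces Psmb5, rose by 2.85 ± 0.31 with IFN epsilon and 2.50 ± 0.31 with IFN beta at the top dose. Psmb10, which replaces Psmb7, rose by 1.99 ± 0.42 with IFN epsilon (limma adjusted p = 0.0161). With IFN beta it differed by 1.52 ± 0.42, which passed with the replicate block (limma adjusted p = 0.00354) and not without it (0.13).

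At lower doses inducible subunits were called with IFN epsilon and not with IFN beta, a difference that limma did not call when the interferons were compared directly at 100 IU/ml (Psmb8 1.53 ± 0.35, limma adjusted p = 0.153). Psmb8 and Psmb9 rose at 100 IU/ml IFN epsilon, by 2.21 ± 0.31 and 2.69 ± 0.38, and Psmb10 (1.27 ± 0.42) was called with the replicate block alone (limma adjusted p = 0.017). At 10 IU/ml IFN epsilon Psmb8 differed by 0.85 and Psmb9 by 0.92, and neither was called. With IFN beta at 10 and 100 IU/ml, groups that lack date 3, 0 were called with or without the block. Against the untreated sample of the same date, on dates 1 and 2, Psmb8 differed by -0.07 and 0.22 at 10 IU/ml and by 0.52 and 0.33 at 100 IU/ml. Psmb9 differed by -0.00 and 0.30, and by 0.68 and 0.56. Psmb10 differed by 0.18 and 0.16, and by 0.18 and 0.23. All 6 differences at 100 IU/ml were thus above 0. Against the mean of all 3 untreated samples, date 3 included, the values of Psmb8, Psmb9 and Psmb10 were 0.33, 0.41 and -0.02 at 10 IU/ml and 0.69, 0.89 and 0.02 at 100 IU/ml. Psme1, a subunit of the PA28 activator that caps the core in place of 19S, differed by 0.60 ± 0.18 and 0.49 ± 0.18 at 1000 IU/ml IFN epsilon and IFN beta, and was not called. Of the 4 measured genes of this list, limma called 0, 2 and 3 at rising doses of IFN epsilon and 0, 0 and 2 at those of IFN beta.

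**Figure D2:**
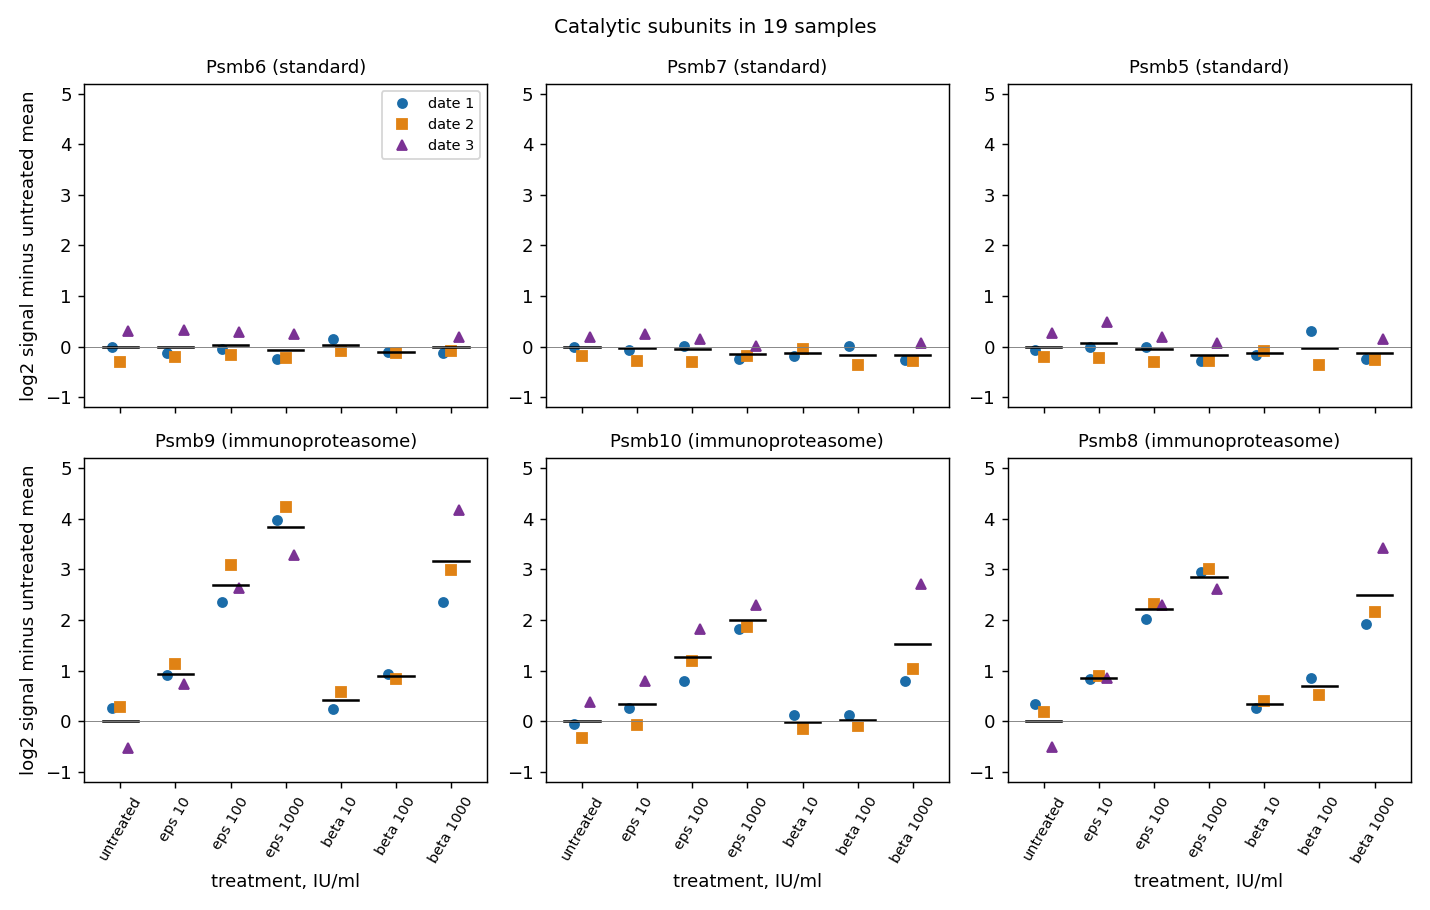
Scaled log2 signal minus the mean of the untreated samples (y axis) in each of 19 samples for the standard catalytic subunits (top row) and the inducible subunit that replaces each (bottom row), by treatment in IU/ml (x axis). Symbols mark the date and bars the group mean. In the top panels treated and untreated samples overlap, while the means of Psmb9, Psmb10 and Psmb8 reach 3.83, 1.99 and 2.85 at 1000 IU/ml IFN epsilon.

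The contrast was also expressed within each sample as the log2 ratio of a standard subunit to its inducible counterpart. Since the ratio sets a probe against another probe, only its change between samples is read. Between untreated cells (3 samples) and 1000 IU/ml of either interferon (6 samples), the ratio of Psmb6 to Psmb9 fell by 3.55, that of Psmb5 to Psmb8 by 2.82 and that of Psmb7 to Psmb10 by 1.91 on the log2 scale. For each ratio all 6 treated samples were below all 3 untreated ones. The two-sided exact permutation p, taken as the doubled p of a single direction, was 0.0238 for each ratio. With doubling this is the smallest that 84 arrangements allow, and it was 0.0238 after adjustment over the 3 ratios. Permuted within dates, the exact p was 0.0741, again the smallest possible with 27 arrangements and doubling. A doubled p cannot reach the threshold in that design. Group means of the ratio of Psmb6 to Psmb9 were 6.96 ± 0.74 (SD) untreated, 6.03 ± 0.47, 4.28 ± 0.51 and 3.05 ± 0.77 at rising doses of IFN epsilon, and 6.57 ± 0.40, 5.96 ± 0.05 and 3.77 ± 0.75 at those of IFN beta.

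Promoter sequence is shown for subunits on both sides of this contrast, so that the bases upstream of genes that were not called and of genes that rose can be read beside their values. RefSeq promoter windows of build GRCm38.p6 were matched by symbol for 25 of the 31 subunits (not for Psmb1, Psmb2, Psmb7, Psmc3, Psmd3 and Psmd7), and the 250 bases before the start were searched on both strands. Psmb6 and Psmb5 (called at no dose) are shown with the capitals marking TGACNNNGC, the core of the antioxidant response element that Nfe2l1 and Nfe2l2 bind. Psmb3 and Psmd4, a beta ring subunit and a ubiquitin receptor of the cap, are shown with the capitals marking a pair of TTTC half-sites with NN between them, the core of the interferon-stimulated response element. Psmb8 is shown with the capitals marking TTCNNNGAA, the site for STAT dimers, and Psmb9 has none of these 3 motifs in its window and no capitals. Each sequence runs 5′ to 3′ on the strand of the gene.
Psmb6 (chr11:70525107-70525356, plus strand): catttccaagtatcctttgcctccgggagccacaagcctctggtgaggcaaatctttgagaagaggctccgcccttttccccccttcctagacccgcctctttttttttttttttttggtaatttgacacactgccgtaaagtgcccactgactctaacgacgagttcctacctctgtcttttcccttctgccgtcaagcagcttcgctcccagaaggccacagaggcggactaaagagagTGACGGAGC
Psmb5 (chr14:54617996-54618245, minus strand): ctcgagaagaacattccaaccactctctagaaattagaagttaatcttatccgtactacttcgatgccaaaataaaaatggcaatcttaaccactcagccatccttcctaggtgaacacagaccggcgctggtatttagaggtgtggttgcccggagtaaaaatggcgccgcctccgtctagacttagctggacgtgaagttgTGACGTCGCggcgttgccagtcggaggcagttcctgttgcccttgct
Psmb3 (chr11:97703184-97703433, plus strand): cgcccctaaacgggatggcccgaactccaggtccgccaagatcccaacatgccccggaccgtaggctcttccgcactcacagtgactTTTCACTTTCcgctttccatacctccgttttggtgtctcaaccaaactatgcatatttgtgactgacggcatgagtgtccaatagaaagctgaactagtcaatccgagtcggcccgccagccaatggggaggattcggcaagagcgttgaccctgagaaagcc
Psmd4 (chr3:95042615-95042864, minus strand): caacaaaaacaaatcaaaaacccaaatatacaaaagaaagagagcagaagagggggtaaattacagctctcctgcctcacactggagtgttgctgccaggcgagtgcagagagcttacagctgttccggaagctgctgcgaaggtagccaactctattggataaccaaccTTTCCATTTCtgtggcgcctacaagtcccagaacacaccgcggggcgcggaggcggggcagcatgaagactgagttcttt
Psmb9 (chr17:34187331-34187580, minus strand): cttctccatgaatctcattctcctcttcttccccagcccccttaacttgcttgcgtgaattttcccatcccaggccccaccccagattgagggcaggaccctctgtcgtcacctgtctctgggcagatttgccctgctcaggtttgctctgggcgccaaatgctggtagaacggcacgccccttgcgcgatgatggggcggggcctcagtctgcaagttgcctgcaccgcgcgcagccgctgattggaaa
Psmb8 (chr17:34197945-34198194, plus strand): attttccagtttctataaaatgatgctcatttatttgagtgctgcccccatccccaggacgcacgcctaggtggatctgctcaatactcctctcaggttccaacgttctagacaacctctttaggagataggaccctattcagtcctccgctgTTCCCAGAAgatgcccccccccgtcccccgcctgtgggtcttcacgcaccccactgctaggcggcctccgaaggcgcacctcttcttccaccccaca

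Among the 25 subunits with a window, 4 held TGACNNNGC (Psmb5, Psmb6, Psmc6 and Psmd12), which is 16% beside 11.5% of all 27025 genes with a window. In Psmb6 the match ended at the start itself, and in Psmb5 it ended 38 bases before it. The paired TTTC core was present for 2 of 25 (Psmb3 and Psmd4), or 8%, beside 3.46% of all genes, and TTCNNNGAA for 0 of 25 beside 8.13%. CCAAT, the box bound by NF-Y, was present for 10 of 25, or 40%, beside 37.5% of all genes. Of 19 matches of these 4 motifs in the windows of the 25, none overlapped a match of another motif. A match is a string in this window, not a bound site. The subunits with the interferon-stimulated core, Psmb3 and Psmd4, differed from untreated cells by -0.02 ± 0.18 and -0.09 ± 0.13 at 1000 IU/ml IFN epsilon and by 0.03 ± 0.18 and -0.08 ± 0.13 at 1000 IU/ml IFN beta. The subunits with the antioxidant core differed by -0.17 (Psmb5) to -0.07 (Psmb6) with IFN epsilon, with Psmc6 (an ATPase) at -0.09 and Psmd12 (a cap scaffold subunit) at -0.07.

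The lower doses gave the same count of calls in the standard subunits. At 10 IU/ml IFN epsilon limma called 0 of 31 (0.201% of all genes called, 0.513% with the replicate block). There 0 subunits and 154 of 14428 genes had an unadjusted p under 0.05. The changes ran from -0.16 (Psmc6) to 0.13 (Psma1) with a median of 0.04. At 100 IU/ml IFN epsilon limma called 0 of 31 (1.05% of all genes, 1.56% with the block). An unadjusted p under 0.05 was found there for 0 subunits and for 472 of 14428 genes. The changes ran from -0.15 (Psmc2, an ATPase) to 0.11 (Psmc5) with a median of -0.04. At 10 IU/ml IFN beta limma called 0 of 31 and 0 of all genes, with 0 subunits and 47 genes at an unadjusted p under 0.05. The changes there ran from -0.15 (Psmd3, a scaffold subunit of the cap) to 0.22 (Psma1). Their median moved from 0.02 to 0.12 with the replicate block, since this group lacks date 3, beside -0.01 and 0.02 for all genes. Against the untreated sample of the same date, 19 of 31 were above 0 on date 1 and 29 on date 2. The share of all genes above 0 in these pairs was not counted. Each date holds 1 treated sample, and the subunits varied together across samples. With the block 5 of 31 had an unadjusted limma p under 0.05 at this dose, beside 427 of 14428 genes, and none had an adjusted one.

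At 100 IU/ml IFN beta the range widened to -0.76 at the low end, through 3 subunits in 1 sample. Limma called 0 of 31 (0.111% of all genes called, 0.284% with the block). An unadjusted p under 0.05 was found for 1, Psmb2, and for 184 of 14428 genes. Psmb2 was at 0.24 in the IFN beta sample of date 1 and 1.67 in that of date 2, while the untreated samples were at 1.59, 1.54 and 2.00. Its log2 fold change was -0.76 ± 0.32 (limma adjusted p = 1.00), and without the sample of date 2 it was -1.48 and was called (limma adjusted p = 0.0395), with the lone sample assumed to vary like the other groups. A second probe of Psmb2 was at 1.36 in both IFN beta samples, and its log2 fold change was -0.12 ± 0.22. The low value of Psmb2 in the date 1 sample was thus seen with 1 of its 2 probes.

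Psmd14, the deubiquitinase of the cap, and the ATPase Psmc5 were low in the same sample and, like Psmb2 here, are named after their values were seen. Psmd14 was at 4.41 and 5.02 at 100 IU/ml IFN beta, against 5.10, 4.94 and 5.06 in untreated cells. Its second probe was at 3.68 and 3.51 in the IFN beta samples and at 3.43 to 3.68 on the untreated arrays, so the low value was again in 1 of 2 probes. Psmc5, which has a single probe, was at 3.01 and 3.78, against 3.98, 3.81 and 3.85 in untreated cells. The 2 arrays of the untreated sample of date 3 differed by 0.84 for this probe (3.43 and 4.27), the largest such difference among the 31 subunits. The untreated value of date 2 rests on 1 array, since the spot of the other was marked as an outlier. Over all 31 subunits the median absolute difference between 2 arrays of an untreated sample was 0.11, and 1 of 92 pairs exceeded 0.5, beside 9.19% of pairs over all genes.

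**Figure D3:**
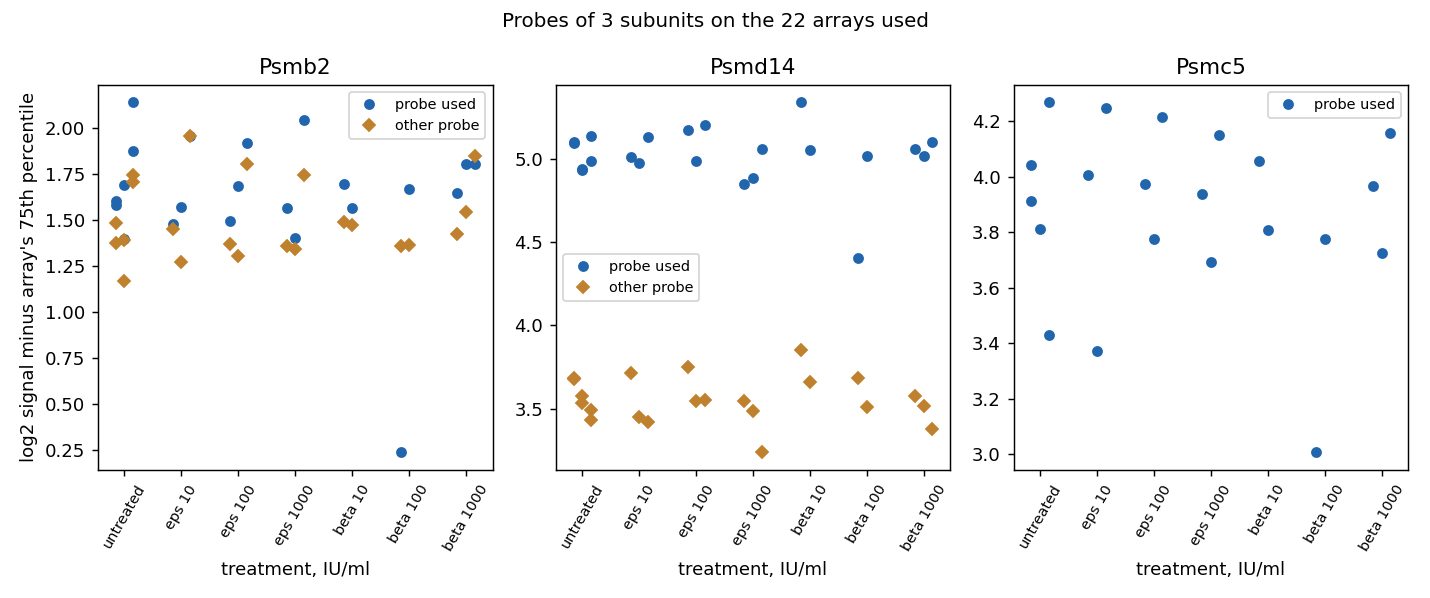
Scaled log2 signal (y axis) of each probe of Psmb2, Psmd14 and Psmc5 on the 22 arrays used, by treatment in IU/ml (x axis), with dates 1 to 3 offset from left to right. In the IFN beta 100 IU/ml sample of date 1 the probe used (blue) is at 0.24, 4.41 and 3.01 in the 3 panels, while the other probes of Psmb2 and Psmd14 (brown) are within the range of the other arrays.

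IFN epsilon and IFN beta did not differ in any standard subunit by the test at a matched dose. At 1000 IU/ml limma called 0 of 31 and 0 of all genes, with 0 subunits and 186 genes at an unadjusted p under 0.05. The differences (IFN epsilon minus IFN beta) ran from -0.18 (Psma3) to 0.03 (Psmb7). Of these 29 of 31 were below 0, beside 57.5% of all genes, and their median was -0.05 beside -0.02. With each sample left out in turn, the median of the 31 ranged from -0.13 to 0.04. Its sign thus did not hold in every such fit. At 10 IU/ml limma called 0 of 31 beside 0.097% of all genes (0.118% with the block), with 0 subunits and 136 genes at an unadjusted p under 0.05. At 100 IU/ml it called 0 of 31 beside 0.0901% (0.36% with the block). The 3 subunits with an unadjusted p under 0.05, beside 411 of 14428 genes, were Psmb2, Psmc5 and Psmd14 described above. The 95% intervals lay within 0.5 to either side for 24 of 31 at 1000 IU/ml, 22 at 10 IU/ml and 20 at 100 IU/ml. Between 1000 and 10 IU/ml of the same interferon, limma called 0 of 31 for IFN epsilon (1.37% of all genes, 4.66% with the block) and 0 of 31 for IFN beta (1.12%, 1.72% with the block). In each, 0 subunits had an unadjusted p under 0.05, beside 933 genes for IFN epsilon and 676 for IFN beta. The median of these dose differences was -0.11 for IFN epsilon. For IFN beta, whose 10 IU/ml group lacks date 3, it was -0.03 without the block and -0.12 with it. With the block the count was 0 of 31 in all 11 comparisons. In the 51 probes of the 31 subunits, tested one by one, limma called 0 in all 11 comparisons.

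Other genes of the pathway, outside the inducible subunits, also had no member called at 1000 IU/ml of either interferon. These lists hold 3 to 8 genes each, and with 2.26% of all genes called for IFN epsilon and 1.56% for IFN beta, a count of 0 in lists this short is near the background. Of 8 measured assembly chaperones 0 were called, with a median of -0.09 for IFN epsilon and -0.02 for IFN beta. Pomp, the chaperone that completes the core, was at 0.05 ± 0.21 and 0.07 ± 0.21. Nfe2l1, a transcription factor that raises subunit genes when the proteasome is impaired, was at -0.00 ± 0.12 and -0.04 ± 0.12, and 0 of 4 genes of its list were called. Adrm1, a ubiquitin receptor of the cap, had the lowest value of 4 associated receptors and deubiquitinases, at -0.37 ± 0.19 with IFN epsilon (limma adjusted p = 0.731). None of 3 other activators and inhibitors, 4 ubiquitin genes and 8 shuttle and segregase genes was called. Psme2 and Paaf1 were not analysed here, and the tissue-specific core subunits Psma8 and Psmb11 were well above background on 1 of 22 arrays each.

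Many standard subunits differed between dates, in a comparison added after the data were seen. On the main scaling 23 of 31 were called higher on date 3 than on the mean of dates 1 and 2 with group in the model, and 0 lower, where limma called 36.5% of all genes higher and 23% lower. Among 5329 genes in the same range of brightness 53.4% were called higher. The median difference of the 31 was 0.28, beside 0.09 for all genes and 0.19 for those of like brightness. Psmd13, a scaffold subunit of the cap, had the largest difference, 0.48 ± 0.05, with scaled log2 signals of 5.39 to 5.65 on date 3 and 4.91 to 5.24 on the other dates, which did not overlap. Psmb5 (0.43 ± 0.08) and Psmb6 (0.42 ± 0.05) followed, and Psma1 (-0.02 ± 0.04) and Psmc6 (-0.01 ± 0.07) were the 2 below 0. Date 3 had the lowest 75th percentile of intensity, as given above, and its part in the result was not tested.

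This difference moved with the scaling of the arrays. Limma called 23 of 31 higher after normexp background correction, where it called 45.2% of all genes higher. With the 75th percentile taken over probes detected on all arrays it called 13 (23.0% of all genes). It called 0 after median scaling (11.4%), 4 after quantile normalization (26.0%) and 5 in the deposited table of processed values (25.9%). The median of the 31 was 0.24, 0.13, 0.29, -0.00 and 0.01 in that order, and 3 were called lower after quantile normalization and 2 in the deposited values. After median scaling 30 of 31 were above 0, with larger standard errors (Psmd13 0.20, against 0.05 on the main scaling). After quantile normalization 15 of 31 were above 0, so the direction over the list did not hold there.

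**Figure D4:**
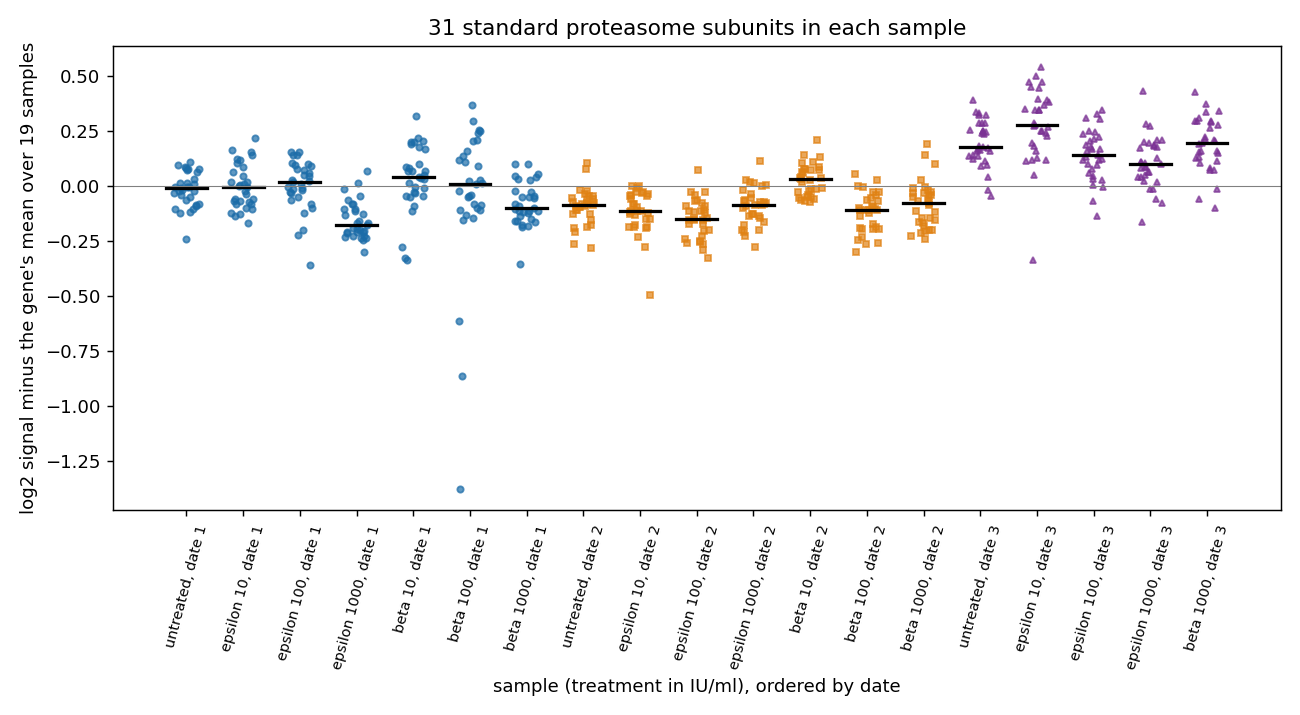
Scaled log2 signal minus the gene's mean over 19 samples (y axis) for the 31 standard subunits (points) in each sample (x axis, ordered by date), with the median as a bar. The bars of the 5 samples of date 3 lie between 0.10 and 0.28, above those of all samples of dates 1 and 2 (-0.18 to 0.04), and 3 low points of IFN beta 100 IU/ml on date 1 are Psmb2, Psmc5 and Psmd14.

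**Figure D5:**
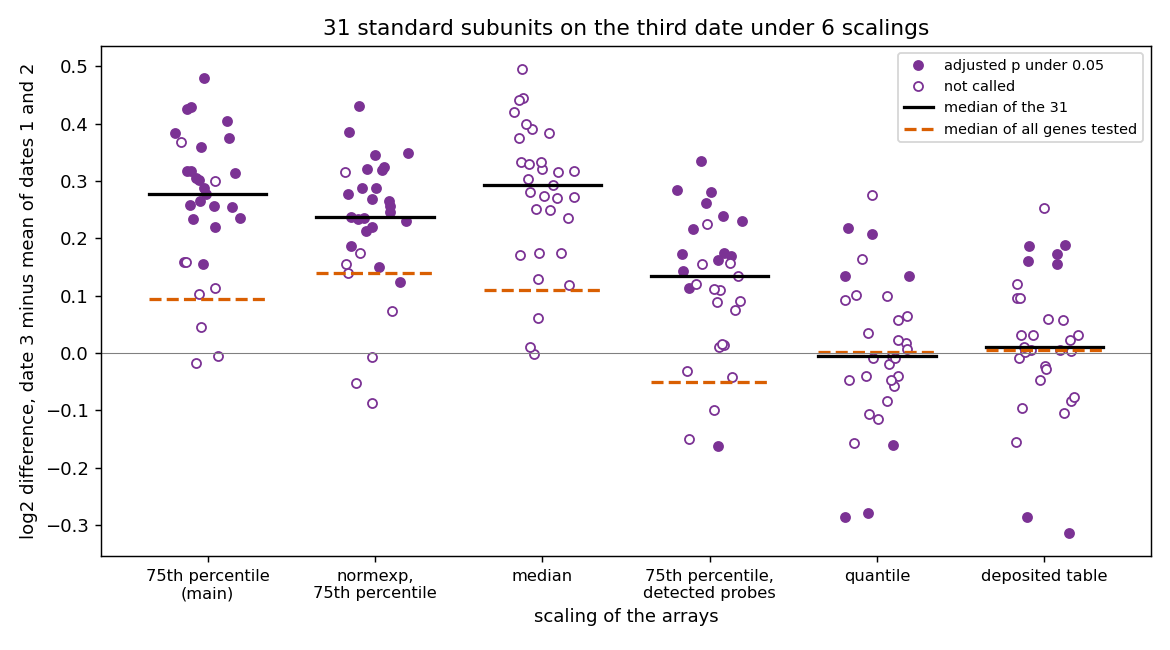
Difference between date 3 and the mean of dates 1 and 2 (y axis, log2) for each of 31 subunits (points, filled where the limma adjusted p is under 0.05) under 6 scalings of the arrays (x axis). Solid bars are the median of the 31 and dashed bars that of all genes tested. The solid bar is at 0.28 on the main scaling and at -0.00 and 0.01 after quantile normalization and in the deposited table.

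The subunits varied together across samples. After group means were removed, the mean correlation over the 465 pairs of subunits across 19 samples was 0.55, and 426 pairs were positive, beside a mean of 0.02 over all genes and 0.14 over genes of like brightness. With the date removed as well, the mean was 0.20, beside 0.10 for genes of like brightness. These correlations share arrays and their scaling. After quantile normalization the means without the date removed were 0.14 for the subunits and 0.01 for genes of like brightness. Removing the date after quantile normalization gave 0.20 for the subunits and 0.05 for genes of like brightness. Psmc6 and Psma1 followed the other subunits least, with a median correlation of 0.00 and 0.08. The SD of a subunit over the 19 samples ranged from 0.09 (Psma1) to 0.38, with a median of 0.16.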

How the data were processed

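RNA of 24 single-colour Agilent arrays was measured, and 22 arrays (19 samples) were used. Per the file headers, the authors' scanner files hold intensity: Agilent Feature Extraction 11.0.1.1 subtracted the background of each spot, and arrays were not scaled to each other. The authors also deposited a table of log2 values, and R 3.6.1 and limma 3.42.0 are the tools in the submitters' processing notes. All 24 columns of it had medians of 5.52 to 5.54 and the same lowest (-1.57) and highest (18.5) value, and each correlated best with log2 of its own array's scanner signal (0.987 to 0.994). That gave its scale and showed no centring of genes, while the background treatment stays unknown. Equal extremes and near-equal medians also arise from quantile normalization, so the deposited table and the quantile scaling may not be separate checks.

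Each processed signal was set on the log2 scale relative to the 75th percentile of its array, without control and outlier spots (79 to 280 per array), and 0 spots were saturated. Spots of a probe and the 2 arrays of an untreated sample were averaged. RefSeq accessions (GRCm38.p6, names only) named 32994 of 56605 probes. Probes had to be well above background in 2 or more samples of some group, and the brightest probe stood for its gene. For 14428 genes, lmFit and eBayes of limma 3.58.1 (R 4.3.3) were run (7 groups, 12 residual degrees of freedom, 10 with the block) with calls at an adjusted p under 0.05. The number of arrays limits the precision. The method was checked on simulated data with independent samples and no effect of date, a setting simpler than that of these arrays. Also used were data.table (1.17.8), statmod 1.5.0, Python 3.11.15, pandas 2.3.3, numpy 2.4.6 and matplotlib 3.10.9.

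Replicates are from separate dates per the series text, and the replicate number therefore pairs samples. Deviations from group means correlated at 0.42 on average between samples of the same date (lowest -0.06) and at -0.20 between dates. The series text calls them biological replicates. Dates and slides crossed, with every date on every slide. Alternatives covered scaling, background, filter, probe choice, source of values, block, samples fitted and each sample left out. The members and gene lists were chosen with earlier results of these data known. One of the listed markers is not reported here. Values by sample are given for the catalytic subunits Psmb5, Psmb6 and Psmb7, for members called in any comparison (there were none), and for the members with the largest change at 1000 IU/ml.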

Additional observations from a re-analysis of the deposited data

Results flagged for a closer look

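The 2 arrays that the labels exclude, IFN beta at 10 and at 100 IU/ml on date 3, enter no comparison of the report, and the inducible subunits were high on both. On the 100 IU/ml array Psmb8, Psmb9 and Psmb10 were above the untreated sample of the same date by 3.78, 4.55 and 2.38 on the log2 scale. On the 10 IU/ml array they were above it by 3.27, 3.65 and 1.81. The used samples of these doses, each against the untreated sample of its own date (1 and 2), differed at 100 IU/ml by 0.52 and 0.33 for Psmb8, 0.68 and 0.56 for Psmb9, and 0.18 and 0.23 for Psmb10. At 10 IU/ml they differed by -0.07 and 0.22, -0.00 and 0.30, and 0.18 and 0.16. The used IFN beta sample of date 3 at 1000 IU/ml differed by 3.95, 4.70 and 2.34 for Psmb8, Psmb9 and Psmb10. Those of dates 1 and 2 at that dose differed by 1.58 and 1.98, 2.11 and 2.72, and 0.84 and 1.36. The 31 standard subunits on the 2 excluded arrays differed from the untreated sample of date 3 by a median of 0.01 at 100 IU/ml (-0.17 to 0.40) and 0.04 at 10 IU/ml (-0.55 to 0.61). The standard catalytic subunits Psmb5, Psmb6 and Psmb7 were at -0.17, 0.04 and -0.14 on the 100 IU/ml array and at 0.01, 0.12 and 0.05 on the 10 IU/ml array. These are single arrays with no replicate, and why they carry an exclusion label was not tested.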

How the results depend on the processing

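The counts of 0 called standard subunits in 11 comparisons held under every alternative run except one: without the IFN beta 100 IU/ml sample of date 2, limma called 1 (Psmb2, -1.48) against untreated cells and 1 (Psmb2, 1.46) between the interferons at 100 IU/ml, so leaving out a replicate gave 0 to 1. The replicate block changed no call of a standard subunit in the 11 comparisons. With the 2 excluded arrays, 70 genes passed limma's test for the top IFN epsilon dose and 0 of all genes in the other 5 comparisons with untreated cells. Fitted to only the groups compared, IFN beta at 1000 IU/ml had 54 genes called (225 across all groups), IFN epsilon at 10 IU/ml 1 (29) and IFN beta at 100 IU/ml 0 (16). With the replicate block, limma called 1185 genes for IFN epsilon at 1000 IU/ml (326 without it), 74 at 10 IU/ml (29), 462 for IFN beta at 1000 IU/ml (225) and 41 at 100 IU/ml (16). After median scaling it called 173 genes for IFN epsilon at 1000 IU/ml, and 145 and 0 for IFN beta at 1000 and 100 IU/ml. Median scaling moved the median of all genes at 1000 IU/ml to -0.44 with IFN epsilon and -0.19 with IFN beta, and that of the 31 to -0.46 with IFN epsilon.

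The count higher on date 3 was 0 after median scaling (11.4% of all genes) and 13 with the 75th percentile of detected probes (23.0%). It was 4 after quantile normalization (26.0%), 5 in the deposited table (25.9%) and 22 to 27 when each sample was left out. The catalytic ratios kept their size with the replicate block (-3.55, -1.91 and -2.82). The exact permutation p within dates was 0.0741, the smallest possible with the doubled p used here. Leaving out each sample gave -3.83 to -3.13 for Psmb6 to Psmb9, -2.08 to -1.76 for Psmb7 to Psmb10 and -3.02 to -2.42 for Psmb5 to Psmb8. With 2 untreated samples the doubled p of the exact test cannot pass.

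Signs of named values, none of which passed a test, reversed as follows. Psma2 with IFN epsilon was -0.34 after median scaling, -0.033 after normexp, -0.014 in the deposited table and -0.037 to 0.13 with each sample left out, and with IFN beta -0.0077 after median scaling. Psmb6 with IFN beta was 0.035 after normexp, 0.030 in the deposited table, 0.031 with the slide as a block and -0.16 to 0.14 with each sample left out, and with IFN epsilon -0.23 to 0.082. Psmb1 with IFN beta was 0.028 after normexp. Psmb5 with IFN beta was -0.26 to 0.019 with each sample left out. The causes were not tested. Normexp on the median signal was chosen after the data were seen, in place of the mean signal, which was not used here.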
